A study of Rattus norvegicus with 18 samples.

Results

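Fos, Jun, Junb, Egr1 and Myc are transcription factors whose genes respond early when a cell is stimulated. They were followed as 5 of the 32545 Ensembl genes in a table of rat heart RNA, chosen by identifier: ENSRNOG00000008015 (Fos), ENSRNOG00000026293 (Jun), ENSRNOG00000042838 (Junb), ENSRNOG00000019422 (Egr1) and ENSRNOG00000004500 (Myc). The hearts came from 18 male Wistar rats, an outbred strain, that weighed 250 g when treatment began, in 3 groups of 6 animals with 1 library per animal. DOX+AICAR rats received 5 weekly intravenous injections of doxorubicin at 3 mg/kg per week with subcutaneous AICAR at 0.5 g/kg. DOX+saline rats received the same doxorubicin with subcutaneous saline, and saline rats received sterile saline and no doxorubicin. Doxorubicin is an anthracycline cancer drug that poisons topoisomerase II and injures heart muscle, and AICAR is a nucleoside that cells turn into an AMP mimic, an activator of the kinase AMPK. No group received AICAR without doxorubicin, so the comparisons show AICAR only on top of doxorubicin. The sources used here do not give the rats' ages or the interval between the last injection and tissue collection.

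Immediate early genes are switched on within minutes of a stimulus from factors that are already in the cell, so their transcripts rise before new protein is made. Kinase cascades reach them through the serum response factor, which binds CArG boxes, and through CREB, which binds cyclic AMP response elements. Fos and Jun family proteins join as dimers to form AP-1, EGR1 is a zinc finger factor, and MYC pairs with MAX to drive genes of growth and ribosome production. In heart muscle these genes are known to respond to stretch, adrenergic stimulation and reperfusion.

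The values were TPM, transcripts per 1000000, which are corrected for gene length and can be compared between genes. Libraries held 20.6 to 31.3 M reads (M, 1000000) assigned to genes, as recovered from the TPM values. The 5 genes had between 84 reads (Myc in saline animal 51) and 9185 reads (Jun in DOX+AICAR animal 9) in a library. Counting error alone was 6.88% to 10.9% of the value for Myc in saline hearts, where the SD between animals was 20.2% of the mean. The table carries no gene names. The gene lengths that its values imply were 3089 bp for the Jun row and 1783 bp for the Junb row, against 3094 and 1785 bp for these intronless genes in the RefSeq annotation of GRCr8. DOX+saline animals 1 and 6 were much more alike than any other pair of the same group, at a median chi-square per gene of 1.36 times that from sampling alone, where the other pairs lay at 2.90 to 18.2. They still differed beyond sampling noise (mean chi-square per gene 5.41), which cannot show whether they came from separate hearts. Because the labels number them as separate animals, they were kept so. No call on the 5 genes changed when both were left out or when their mean was used as 1 animal. The saline rats are numbered 51 to 56 and the doxorubicin rats 1 to 12, so a difference between cohorts cannot be told apart from doxorubicin. Cell type markers were not analysed here, because the identifiers are not paired with names, and the labelled tissue was not checked against them.

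What doxorubicin did to these genes was asked by comparing DOX+saline with saline. Junb, Egr1, Jun and Myc rose, and their groups did not overlap. Fos averaged higher but did not pass the test. Calls were made at an adjusted p under 0.05 (limma, Benjamini-Hochberg over 14732 genes tested). These 4 of 5 genes stand beside a broad response: 38% of all genes tested were called higher and 21.1% were higher without overlap. In whole-heart RNA, a change in the number of cells of a type and a change in RNA per cell cannot be told apart.

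Fos encodes the AP-1 partner that must pair with a Jun protein to bind DNA. Its lowest, median and highest values were 35.7, 50.9 and 69.8 TPM in DOX+saline, against 9.35, 20.4 and 91.5 TPM in saline. The groups overlapped because of saline animal 55 at 91.5 TPM and animal 52 at 39.6 TPM, while the other 4 saline animals had 9.35 to 23.4 TPM. Fos averaged 51.2 ± 11.1 TPM in DOX+saline and 32.6 ± 30.7 TPM in saline (SD, n = 6 each). The log2 change of TPM + 1 was 1.01 (SE 0.48, limma adjusted p = 0.0806), with a 95% interval of -0.00075 to 2.02. Without saline animal 55 the log2 change was 1.38 and passed the test (limma adjusted p = 0.0107).

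Jun encodes an AP-1 subunit that can pair with itself or with Fos, and it varied least of the 5 genes between saline hearts. It had 128, 153 and 212 TPM (lowest, median and highest) in DOX+saline, against 95.7, 111 and 125 TPM in saline. The lowest DOX+saline heart lay just above the highest saline heart. The means were 159 ± 33.7 TPM in DOX+saline and 111 ± 9.81 TPM in saline, a 1.44-fold ratio (SD, n = 6 each, log2 change 0.50, SE 0.12, limma adjusted p = 0.00144). A rise at least as large is common in this comparison, since 18.6% of all genes tested rose further than Jun.

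Junb encodes a Jun family member with weaker transcriptional activity than Jun on many AP-1 sites. Its lowest, median and highest values were 138, 194 and 233 TPM in DOX+saline, against 50.4, 64.1 and 92.6 TPM in saline, with a wide gap between the groups. It averaged 188 ± 31.6 TPM in DOX+saline and 68.0 ± 15.5 TPM in saline, a 2.77-fold ratio (SD, n = 6 each, log2 change 1.47, SE 0.25, limma adjusted p = 9.41e-05). Only 2.97% of genes tested rose further.

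Egr1 encodes a zinc finger factor that binds GC-rich sites in the promoters of growth and matrix genes. It had 75.3, 86.4 and 135 TPM (lowest, median and highest) in DOX+saline, against 16.1, 29.4 and 50.5 TPM in saline. All 6 DOX+saline hearts lay above all saline hearts, and 5 of them stood close together, from 75.3 to 89.1 TPM. Egr1 averaged 91.8 ± 21.8 TPM in DOX+saline and 29.5 ± 12.3 TPM in saline, a 3.12-fold ratio (SD, n = 6 each, log2 change 1.68, SE 0.41, limma adjusted p = 0.0019).

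Myc encodes the partner of MAX, and it was the scarcest of the 5 genes in the saline heart and the one with the largest ratio between groups. It had 14.5, 30.4 and 36.1 TPM (lowest, median and highest) in DOX+saline, against 3.08, 4.16 and 5.75 TPM in saline. The lowest DOX+saline heart, animal 2, still had more than any saline heart. The means were 27.8 ± 9.24 TPM in DOX+saline and 4.29 ± 0.866 TPM in saline, a 6.48-fold ratio (SD, n = 6 each, log2 change 2.39, SE 0.20, limma adjusted p = 4.49e-08). Of all genes tested, 128 (0.869%) rose further than Myc. Animals 1 and 6, the closely matched pair, had 35.9 and 36.1 TPM, the highest of their group, and without both the log2 change was 2.169 (limma adjusted p = 7.50e-07).

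**Figure D1:**
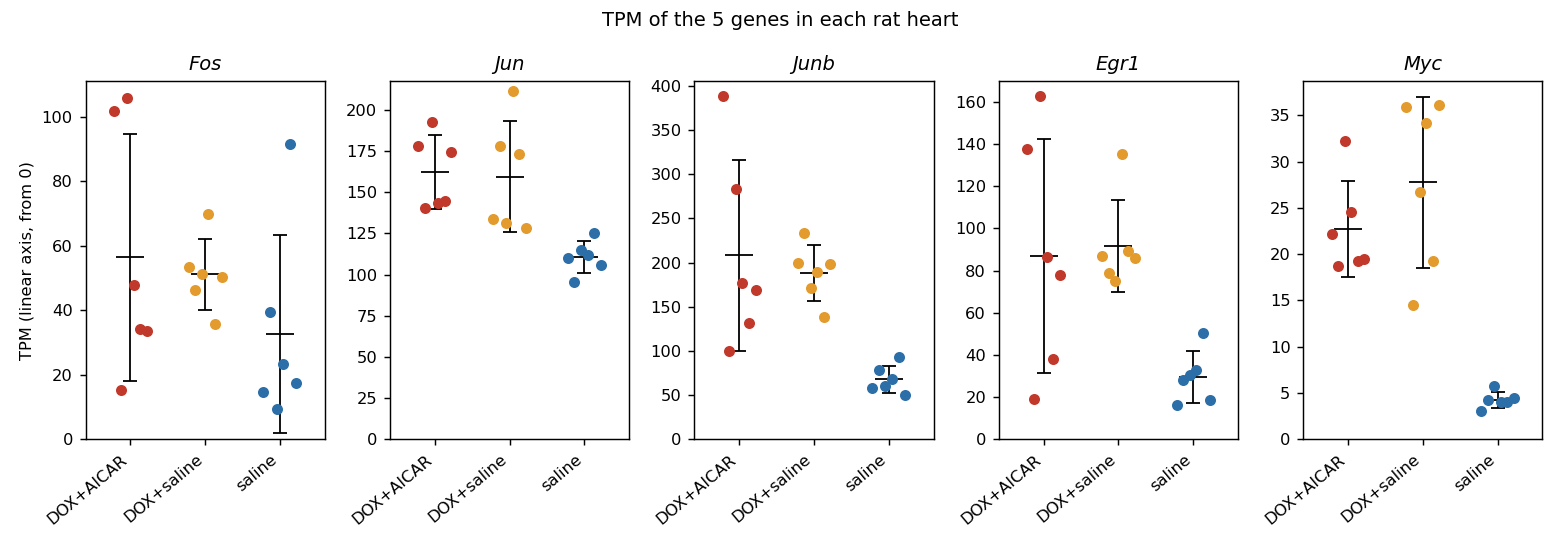
TPM of Fos, Jun, Junb, Egr1 and Myc (vertical axes, linear from 0, each on its own scale) in the 3 groups, with 1 point per animal and bars for the mean ± SD of 6 animals. Myc lies at 3.08 to 5.75 TPM in saline and at 14.5 TPM or more in both doxorubicin groups, while Fos overlaps between all groups.

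The stretch around the start site is shown for Junb and Egr1, which rose after doxorubicin and are the 2 of the 5 genes held by the RefSeq promoter table (GRCr8). Each sequence covers 250 bases before and 50 bases after the start of the gene, on the plus strand. Capitals mark CArG boxes, the cyclic AMP response element half-site TGACG on either strand, and TATAAA.
Egr1 promoter, chr18:26736828-26737127: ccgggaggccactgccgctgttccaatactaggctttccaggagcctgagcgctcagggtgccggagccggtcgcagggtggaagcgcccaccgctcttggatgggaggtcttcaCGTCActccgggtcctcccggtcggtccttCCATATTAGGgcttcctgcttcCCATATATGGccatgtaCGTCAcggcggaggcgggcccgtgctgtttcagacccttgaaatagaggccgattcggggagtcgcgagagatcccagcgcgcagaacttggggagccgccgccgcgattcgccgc
Junb promoter, chr19:40080876-40081175: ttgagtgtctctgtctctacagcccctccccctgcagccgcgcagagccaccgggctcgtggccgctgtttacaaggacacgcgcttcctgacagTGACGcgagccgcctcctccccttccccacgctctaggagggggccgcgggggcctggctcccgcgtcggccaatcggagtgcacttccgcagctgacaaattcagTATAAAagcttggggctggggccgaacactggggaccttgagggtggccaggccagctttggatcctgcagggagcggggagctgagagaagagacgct
The Egr1 stretch holds 2 CArG boxes, beginning 105 and 83 bases before the start site, and 2 TGACG half-sites on the minus strand at 135 and 66 bases before it. Of 33469 promoters of the same length, 1.64% hold a CArG box on either strand and 21.2% hold TGACG. The Junb stretch holds 1 TGACG at 155 bases before the start site and 1 TATAAA at 49 bases before it, a motif found in 14.2% of promoters. Neither stretch holds TGACGTCA, the AP-1 site TGANTCA, the E-box CACGTG or the EGR site GCGNGGGCG. These matches describe letters in a window and do not show that a factor binds there.

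What AICAR added was asked by comparing DOX+AICAR with DOX+saline. None of the 5 genes was called (limma adjusted p 0.584 to 0.989), in a comparison where 1.33% of all genes tested were called. The groups overlapped for each of the 5 genes, where 1.51% of all genes tested did not overlap. The intervals leave room for sizeable differences in either direction for Fos and Egr1 and are narrow for Jun.

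Fos had 15.2, 41.0 and 106 TPM (lowest, median and highest) in DOX+AICAR, against 35.7, 50.9 and 69.8 TPM in DOX+saline. The AICAR-treated hearts lay on both sides of the DOX+saline hearts: animals 7 and 9 were above all of them and animals 8, 11 and 12 below all of them. The log2 change was -0.13, with a 95% interval of -1.14 to 0.88 (limma adjusted p = 0.92). Its sign turned without DOX+AICAR animal 8 (0.18).

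Egr1 and Junb also scattered widely in DOX+AICAR. Egr1 had 18.9, 82.3 and 163 TPM (lowest, median and highest) in DOX+AICAR, against 75.3, 86.4 and 135 TPM in DOX+saline, a log2 change of -0.37 with a 95% interval of -1.22 to 0.48 (limma adjusted p = 0.68). It was -0.0061 without DOX+AICAR animal 8 and -0.61 without DOX+AICAR animal 9 (limma adjusted p = 0.468). Junb had 100.04, 173 and 388 TPM in DOX+AICAR, against 138, 194 and 233 TPM in DOX+saline, a log2 change of 0.01 with a 95% interval of -0.52 to 0.54 (limma adjusted p = 0.989). Its sign turned without DOX+AICAR animal 7 (-0.20) or 9 (-0.11) and without DOX+saline animal 3 (-0.011) or 5 (-0.073).

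Jun and Myc scattered less in DOX+AICAR. Jun had 140.2, 160 and 193 TPM (lowest, median and highest) in DOX+AICAR, against 128, 153 and 212 TPM in DOX+saline. Its log2 change of 0.04 had a 95% interval of -0.21 to 0.29 (limma adjusted p = 0.892), and the sign turned without DOX+AICAR animal 9 (-0.010) or without DOX+saline animal 1 (-0.0039), 3 (-0.0091) or 6 (-0.016). Myc had 18.7, 20.8 and 32.2 TPM in DOX+AICAR, against 14.5, 30.4 and 36.1 TPM in DOX+saline, a log2 change of -0.23 with a 95% interval of -0.65 to 0.19 (limma adjusted p = 0.584). The log2 change of Myc was -0.013 without DOX+saline animals 1 and 6, -0.40 without DOX+saline animal 2 (limma adjusted p = 0.21) and -0.44 with array weights (limma adjusted p = 0.136).

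DOX+AICAR against saline asked which of these genes still differed from saline in rats given both drugs. Jun, Junb, Egr1 and Myc were called higher, where 34.8% of all genes tested were called higher. This comparison shares the saline hearts with DOX+saline against saline. Jun, Junb and Myc did not overlap between the groups, as was the case for 22.9% of all genes tested in the same direction.

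Myc averaged 22.7 ± 5.16 TPM in DOX+AICAR and 4.29 ± 0.866 TPM in saline, a 5.30-fold ratio (SD, n = 6 each, log2 change 2.16, SE 0.20, limma adjusted p = 1.81e-07). Junb averaged 208 ± 108 TPM in DOX+AICAR and 68.0 ± 15.5 TPM in saline (SD, n = 6 each, log2 change 1.48, SE 0.25, limma adjusted p = 0.000102). The gap between the groups was narrow for Junb, with animal 8 at 100.04 TPM against 92.6 TPM in the highest saline heart. Jun averaged 162 ± 22.2 TPM in DOX+AICAR and 111 ± 9.81 TPM in saline (SD, n = 6 each, log2 change 0.54, SE 0.12, limma adjusted p = 0.000842).

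Egr1 averaged 87.0 ± 55.5 TPM in DOX+AICAR and 29.5 ± 12.3 TPM in saline (SD, n = 6 each, log2 change 1.31, SE 0.41, limma adjusted p = 0.0117). It overlapped, since DOX+AICAR animals 8 and 11, at 18.9 and 38.0 TPM, lay within the saline range of 16.1 to 50.5 TPM. Fos averaged 56.4 ± 38.2 TPM in DOX+AICAR and 32.6 ± 30.7 TPM in saline and did not pass the test (SD, n = 6 each, log2 change 0.88, SE 0.48, limma adjusted p = 0.134). Fos passed without DOX+AICAR animal 8 (log2 change 1.19, limma adjusted p = 0.0382) or without saline animal 55 (log2 change 1.25, limma adjusted p = 0.0203).

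**Figure D2:**
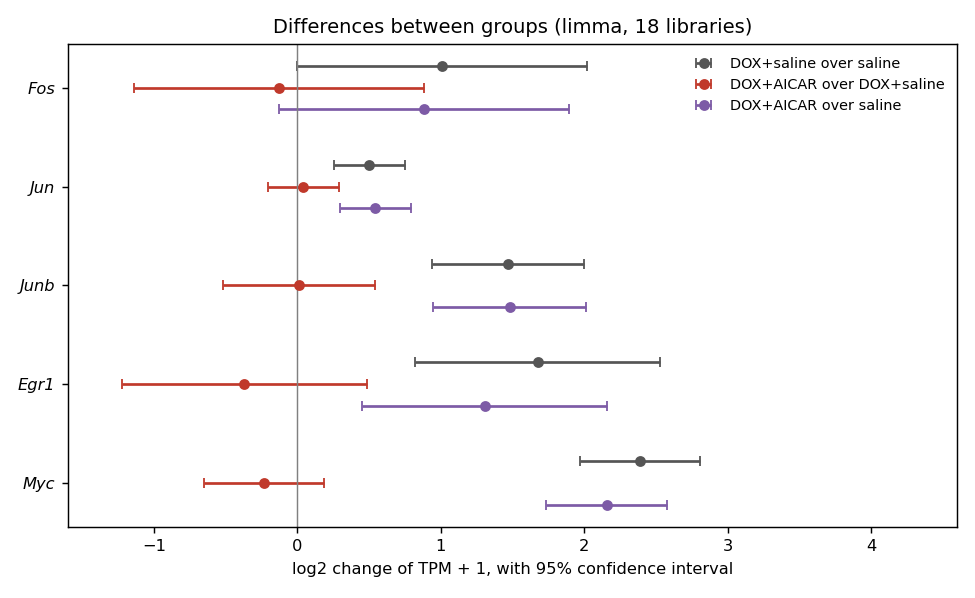
Log2 change of TPM + 1 (horizontal axis) for each gene in the 3 comparisons, with points for the limma estimate and bars for its 95% confidence interval over 18 libraries. All 5 intervals of DOX+AICAR over DOX+saline span 0, and Myc lies farthest from 0 in both comparisons with saline, at 2.39 and 2.16.

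The order of the 5 genes by TPM differed between the groups at the top. Jun was the most abundant in all 6 saline hearts, whereas Junb exceeded Jun in 3 of 6 DOX+AICAR hearts, 4 of 6 DOX+saline hearts and 0 of 6 saline hearts. The Junb to Jun ratio of TPM had a median of 1.10 (0.714 to 2.18) in DOX+AICAR, 1.31 (0.7999 to 1.55) in DOX+saline and 0.567 (0.477 to 0.823) in saline. The ranges of DOX+saline and saline overlapped through DOX+saline animal 5 at 0.7999 and saline animal 52 at 0.823. Within each doxorubicin group Junb was above Jun in some hearts and below it in others, so their order there was not settled. Egr1 exceeded Fos in all 12 doxorubicin hearts and in 4 of 6 saline hearts, the exceptions being saline animals 52 and 55. Myc was the lowest of the 5 in every heart except that of DOX+AICAR animal 8, where Fos was lower at 15.2 TPM against 18.7 TPM for Myc.

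The spread between animals depended on the gene and on the group. In DOX+AICAR the SD of log2(TPM + 1) was 1.04 for Fos, 1.15 for Egr1 and 0.71 for Junb, where the median over all genes tested was 0.14. An SD as large occurred in 1.09%, 0.774% and 3.12% of genes. In DOX+saline the same genes had SDs of 0.31, 0.30 and 0.25, where the median over all genes was 0.17. The Egr1 value rests on animal 4, since the SD of the other 5 animals was 0.10, and that of Junb was 0.16 without animal 5. In saline, Fos (1.13) and Egr1 (0.58) again varied more than Junb (0.31) and Jun (0.13), and the SD of Fos was 0.74 without animal 55. The median over all genes in saline was 0.11, and 0.76%, 4.13% and 10.6% of genes had SDs as large as Fos, Egr1 and Junb. Over all animals, Fos thus varied no less in saline than in DOX+AICAR. The SD in DOX+AICAR was 3.40 times that in DOX+saline for Fos, 3.85 times for Egr1 and 2.83 times for Junb. Leaving out 1 animal of either group gave ratios of 2.63 to 4.75 for Fos, 2.71 to 11.2 for Egr1 (11.2 without DOX+saline animal 4) and 2.20 to 4.47 for Junb (4.47 without DOX+saline animal 5). Ratios as large as those over all animals occurred in 0.774%, 0.523% and 1.53% of all genes tested, whose median ratio was 0.838. Jun (0.659) and Myc (0.550) went with the majority of genes and varied less in DOX+AICAR. Myc had the largest SD of the 5 genes in DOX+saline (0.52), where Jun had 0.30. The difference in spread was noticed in these data and was not tested. The limma fit shares 1 spread per gene over the 3 groups, so its SEs do not follow these differences. For Egr1 the SE was 0.41 over all 18 libraries in both comparisons with saline. With only the 12 libraries compared it was 0.24 in DOX+saline against saline (limma adjusted p = 7.92e-05). In DOX+AICAR against saline it was then 0.47 (limma adjusted p = 0.0299).

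**Figure D3:**
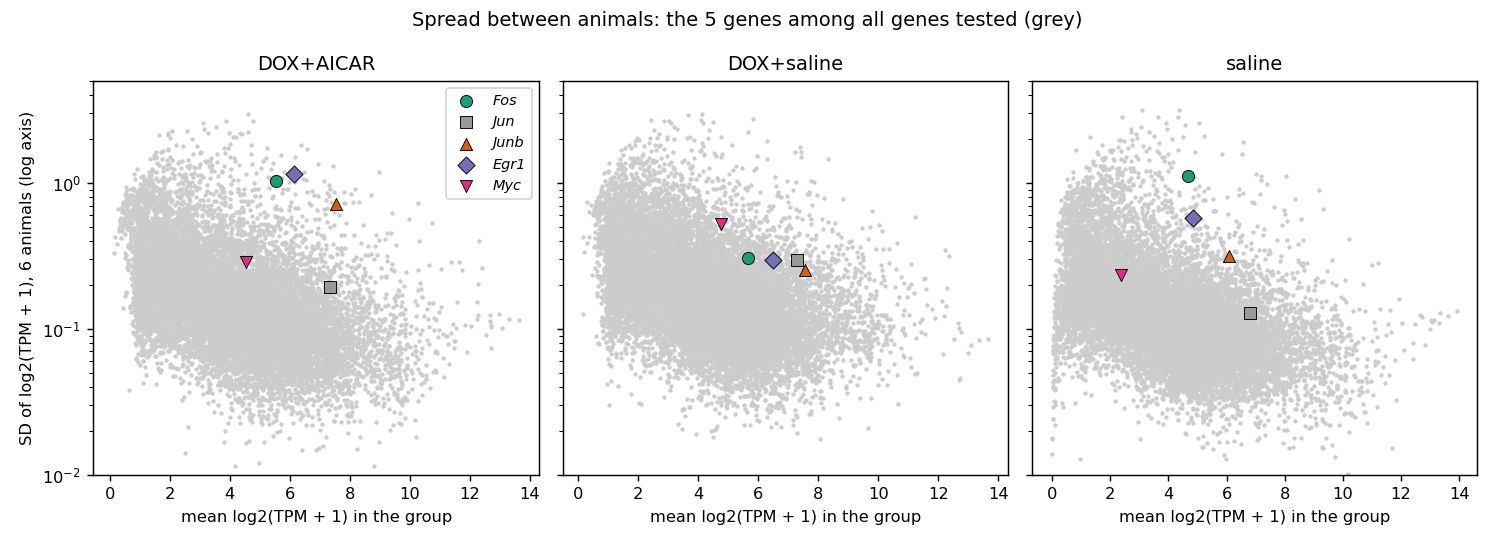
SD of log2(TPM + 1) over 6 animals (vertical log axis) against the mean log2(TPM + 1) in each group, with the 5 genes as coloured symbols and all 14732 genes tested as grey points, apart from 1 gene in each doxorubicin group and 5 in saline with smaller SDs than the axis shows. Fos, Egr1 and Junb lie toward the top of the grey points in DOX+AICAR, at 1.04, 1.15 and 0.71. Fos lies as high in saline, at 1.13.

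The genes largely shared their extreme animals in DOX+AICAR. Animals 7 and 9 had the highest and animal 8 the lowest values of Fos, Egr1, Junb and Jun there, and Myc was also highest in animal 9 (32.2 TPM) and lowest in animal 8 (18.7 TPM). In saline, animal 55 had the highest values of Fos, Egr1, Junb and Jun, yet its Myc of 4.07 TPM was in the middle of its group. DOX+saline animal 2, lowest in Myc at 14.5 TPM, was highest in Junb at 233 TPM.

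Correlations between the genes were computed within each group of 6 animals on log2(TPM + 1), for 10 pairs in 3 groups. None of the 30 passed after Benjamini-Hochberg adjustment. By rank (rho), the smallest p that 6 animals allow is 0.00278, and for Pearson r it can be lower. That rank limit is too large for a single pair among 30 to pass alone, so the rank result says little about the genes. Where r is given without named animals, these lay farthest from the group median of the first gene of the pair. Such r values rest on the few animals that remain of 6 and were not tested. In DOX+AICAR all 10 pairs were positively correlated, with Pearson r from 0.590 to 0.953. Fos and Egr1 had r = 0.943 and rho = 0.943 there (exact permutation p = 0.00417 and 0.0167, adjusted p = 0.104 and 0.167), and r = 0.808 without animals 8 and 9. Fos and Junb had r = 0.953 and rho = 0.886 (exact permutation p = 0.00694 and 0.0333, adjusted p = 0.104 and 0.2), and r = 0.962 without animals 8 and 9. Junb and Egr1 had r = 0.919 and rho = 0.943 (exact permutation p = 0.0125 and 0.0167, adjusted p = 0.125 and 0.167), and r = 0.972 without animals 7 and 8.

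In saline these 3 pairs were also positive. Fos and Junb had r = 0.874 and rho = 0.771 (exact permutation p = 0.025 and 0.103, adjusted p = 0.188 and 0.28), and r = 0.879 without animals 53 and 55. Junb and Egr1 had r = 0.84 and rho = 0.771 (exact permutation p = 0.0403 and 0.103, adjusted p = 0.231 and 0.28), and r = 0.515 without animals 55 and 56. Fos and Egr1 had r = 0.677 and rho = 0.543 (exact permutation p = 0.132 and 0.297, adjusted p = 0.33 and 0.525), and r = 0.763 without animals 53 and 55.

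In DOX+saline, Junb and Egr1 had r = -0.0622 and rho = -0.257 (exact permutation p = 0.836 and 0.658, adjusted p = 0.965 and 0.94), and r = 0.245 without animals 2 and 5. Fos and Junb had r = 0.478 and rho = 0.143 (exact permutation p = 0.315 and 0.803, adjusted p = 0.525 and 0.963), and r = -0.689 without animals 4 and 5. Fos and Egr1 had r = 0.627 and rho = 0.257 (exact permutation p = 0.265 and 0.658, adjusted p = 0.475 and 0.94), and r = 0.434 without animals 4 and 5. Over all pairs of DOX+saline, r ranged from -0.369 (Jun and Myc) to 0.697 (Jun and Egr1), and 7 of 10 pairs were positive. Whether the relations differ between the groups was not tested.

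**Figure D4:**
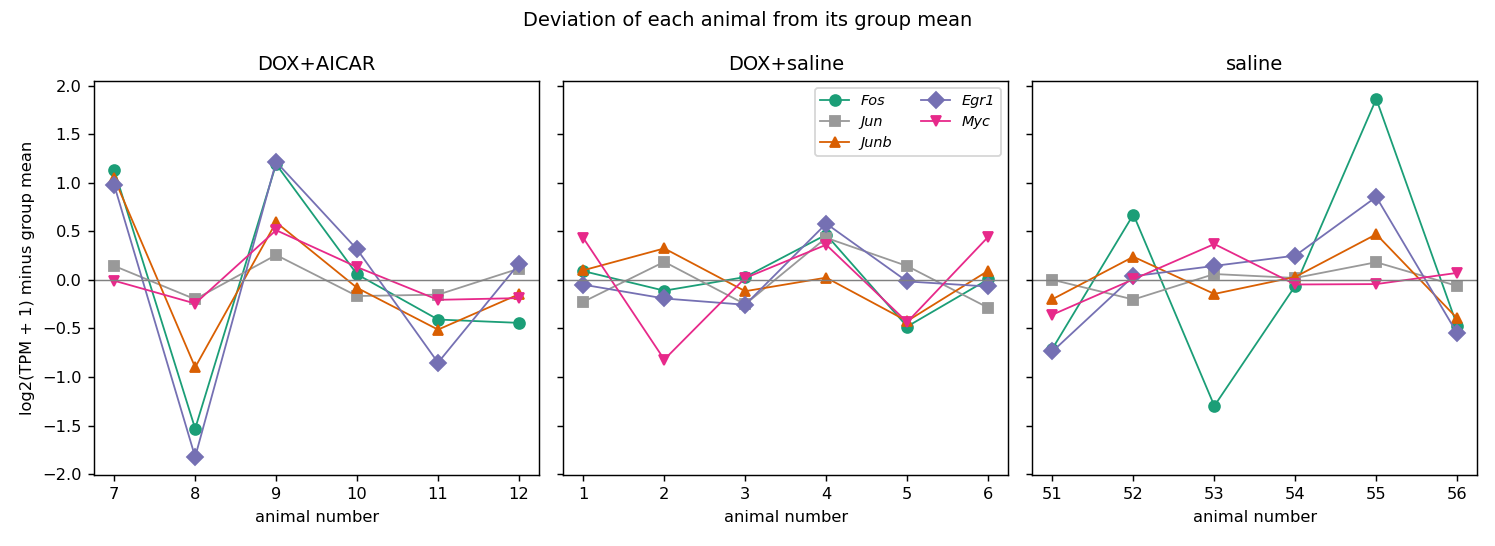
Deviation of each animal from its group mean in log2(TPM + 1) (vertical axis) for the 5 genes, by animal number in the 3 groups. Fos, Egr1 and Junb move together in DOX+AICAR, high in animals 7 and 9 and low in animal 8. In saline all of them are highest in animal 55. No correlation between the genes passed the adjustment in any group.

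As a measure of likeness, each gene's deviations from its group mean over the 18 hearts were correlated with those of 14727 other genes. Junb was most like ENSRNOG00000003300 (r = 0.948), which averaged 213 ± 90.6 TPM in DOX+AICAR, 250.5 ± 36.8 TPM in DOX+saline and 64.3 ± 11.6 TPM in saline (SD, n = 6 each). Myc was most like ENSRNOG00000022598 (r = 0.937), at 5.02 ± 0.609, 4.70 ± 0.865 and 3.73 ± 0.298 TPM in DOX+AICAR, DOX+saline and saline. Neither identifier stood alone: Myc had r of at least 0.8 with 151 of these genes, and Junb with 17. No function is attached to these identifiers, which the table does not pair with names. By the same measure Fos and Junb (r = 0.823), Fos and Egr1 (0.787) and Junb and Egr1 (0.833) were close over the 18 hearts, although Junb and Egr1 had r = -0.0622 within DOX+saline, and only 2 of the other genes were nearer to Fos than Junb was. Jun had r = 0.568 with Egr1, 0.388 with Junb and 0.342 with Fos, and Myc had r = 0.422 with Egr1, 0.264 with Fos, 0.233 with Junb and -0.0934 with Jun. Likeness was searched over many genes and is a description of these 18 hearts. Groups with a wide spread weigh most in it. The SD of Myc was 0.52 in DOX+saline, which holds the closely matched animals 1 and 6, against 0.29 in DOX+AICAR and 0.23 in saline. That of Junb was 0.71 in DOX+AICAR, 0.25 in DOX+saline and 0.31 in saline.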

How the data were processed

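RNA of 18 rat hearts was measured, 1 library per animal. Polyadenylated RNA was made into stranded paired-end libraries, per the labels. Per the submitters' processing notes, bcl2fastq 2.17.1.14, HISAT2 and featureCounts of Subread 1.5.0 were used with build Rnor_6.0. The sources used here do not state the annotation release or whether counting used strand. The authors deposited TPM values, which sum to 1000000 in each library, so changes are changes of share. Of 32545 identifiers, 0 matched the 47357 genes of the RefSeq table (GRCr8), so lists fixed by symbol (other immediate early genes, Myc partners and targets, upstream factors, cell type markers) were not tested.

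Whole reads were recovered from the steps in low TPM values. All 25878 genes above 0 were solved within 0.001 reads, among them 20828 above 0 in 6 or more libraries. A gene above 0 in only 1 library is solved whatever its value. Gene lengths were whole within 0.05 bp for 100% of 12659 genes. The 14732 genes that reached 1 TPM in 6 or more libraries were tested with limma 3.58.1 (R 4.3.3) on log2(TPM + 1), with a mean per group over all 18 libraries, a mean-variance trend and two-sided p-values adjusted with Benjamini-Hochberg over all of them. Fold changes on this scale understate changes of low genes such as Myc. Correlations used two-sided exact permutation over the 720 pairings (numpy 2.4.6). The fit was tested on simulated data with known changes.

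All 5 genes were named in every comparison. The gene most like each was the one with the highest correlation of deviations from group means, and 2 identifiers were printed. The genes and lists were chosen with earlier results of these data known. Nothing in the labels pairs animals between groups. Alternatives changed the pseudocount, filter, scaling, weights or libraries. Those on animals 1 and 6, voom on recovered reads, spreads without each animal and the log2 scale for animals far from their group were chosen after seeing the data.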

Additional observations from a re-analysis of the deposited data

Results flagged for a closer look

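Of 15 sets of 6 values (5 genes in 3 groups), 2 held an animal far from the rest with a gap to its nearest neighbour large enough, as a share of the range of its group, to pass Dixon's critical value for 6 animals on TPM values. On log2(TPM + 1), 1 did (Egr1 in DOX+saline). Chance gives about 1 in 20 sets, or 0.75 here.

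Fos in saline animal 55 stood at 91.5 TPM, where the other 5 saline animals had 9.35 to 39.6 TPM. The gap was 0.632 of the range on TPM and 0.376 on log2(TPM + 1). The same animal was highest of its group in Egr1 (50.5 TPM), Junb (92.6 TPM) and Jun (125 TPM).

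Egr1 in DOX+saline animal 4 stood at 135 TPM, against 75.3 to 89.1 TPM in the rest of that group. The gap was 0.769 of the range on TPM and 0.713 on log2(TPM + 1). This animal was also highest of its group in Fos (69.8 TPM) and Jun (212 TPM).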

How the results depend on the processing

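Against saline, the calls on Jun, Junb, Egr1 and Myc kept their direction and stayed past the threshold in all 29 alternatives of each comparison. For DOX+saline against saline, leaving out each animal gave log2 changes of 0.42 to 0.56 (Jun), 1.39 to 1.56 (Junb), 1.53 to 1.85 (Egr1), 2.30 to 2.55 (Myc) and 0.75 to 1.38 (Fos, limma adjusted p 0.0107 to 0.189). For DOX+AICAR against saline it gave 0.49 to 0.58, 1.27 to 1.66, 1.06 to 1.67, 2.05 to 2.23 and, for Fos, 0.62 to 1.25 (limma adjusted p 0.0203 to 0.29). For DOX+AICAR against DOX+saline it gave -0.37 to 0.18 (Fos), -0.016 to 0.13 (Jun), -0.20 to 0.19 (Junb), -0.61 to -0.0061 (Egr1) and -0.40 to -0.14 (Myc). In that comparison Jun also turned without DOX+saline animals 1 and 6 (-0.087) and with their mean as 1 animal (-0.010), and Junb with array weights (-0.065) and with voom on recovered reads (-0.0068). The cause was not tested. The number of genes called there was 196 in all, 36 to 461 when leaving out each animal (lowest with DOX+AICAR animal 10 left out, highest with DOX+saline animal 2 left out, and over 1.5 times away for 14 of 18 animals), 321 with quantile normalization, 16 with only the 12 libraries compared, 1058 with array weights and 44 with animals 1 and 6 averaged. At an unadjusted p below 0.05 it was 2590.

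The median log2 change of all genes in DOX+saline against saline was 0.10 as deposited, -0.0049 when scaled by median of ratios, and -0.059 when quantile normalized. Genes called higher numbered 5595 of 8538, 4061 of 8460 and 3424 of 8343 under these scalings. In DOX+AICAR against saline they numbered 5133 of 7850, 3750 of 7912 and 3207 of 7910. With median-of-ratios factors Jun changed by 0.38 (limma adjusted p = 0.0152) in DOX+saline against saline. Of the 30 correlations 0 passed on log2(TPM + 1), 0 on TPM and 0 by rank, and 6 had an unadjusted exact permutation p below 0.05. Low counts limit Myc most, with 84 to 211 reads in saline hearts.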
